A study of Mus musculus with 16 samples.

Results

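The preconditioning regimens given before cisplatin were compared directly: 4 kidneys of mice on calorie restriction (CR_cisplatin) against 4 of mice exposed to hypoxia (HP_cisplatin), which are 8 of the 16 libraries of the series, chosen by the preconditioning and injection labels. All 16 are total RNA, depleted of ribosomal RNA, from perfused kidneys of C57BL/6 mice aged 20 weeks, taken 72 h after an intraperitoneal injection. CR_cisplatin mice had been restricted for 4 weeks before the injection of cisplatin. HP_cisplatin mice had breathed low oxygen for 2 h, 4 h and 8 h on 3 following days, at least 1 h before cisplatin. The reference groups had no preconditioning (baseline, BL) and received cisplatin (BL_cisplatin, 4 libraries) or 0.9% sodium chloride (BL_vehicle, 4 libraries). The labels give neither the cisplatin dose, the oxygen level nor the degree of restriction, and no preconditioned group received saline. Whether each library is a separate mouse is not stated, so p-values measure the spread between these samples, which may be technical. Library numbers follow the order of the labels and pair nothing.

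Cisplatin is a platinum drug used against tumours. It enters cells of the proximal tubule through copper and organic cation transporters, binds DNA and there activates p53, the transcription factor that halts the cell cycle or starts cell death after DNA damage. Injured tubule cells lose their transporters and respiratory enzymes and switch on injury genes such as Havcr1, the gene of KIM-1. Calorie restriction and short bouts of hypoxia are both used in animals as preconditioning, a mild stress that precedes an injury. Hypoxia acts on transcription mainly through hypoxia-inducible factor (HIF), and restriction through fasting signals and nutrient sensors. Proximal tubule cells live mainly on fatty acids, and peroxisome proliferator-activated receptor alpha (PPAR alpha, gene Ppara) is the transcription factor best known for inducing the genes of fatty acid use and ketone body formation.

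Values are TPM, the reads of a gene over its length scaled to a sum of 1000000 per library. A log2 fold change is CR_cisplatin minus HP_cisplatin on the log2(TPM + 1) scale, where genes of low TPM appear to change less than they did, so a positive value means higher after calorie restriction. Reads recovered from the TPM numbered 53198276 to 60668875 in the 8 libraries. Mitochondrial ribosomal RNA took 30.3 to 32% of reads in CR_cisplatin and 27.4 to 31.3% in HP_cisplatin. Markers of every tubule segment, endothelium and podocytes passed the filter on low values, and all 10 lymphocyte markers were under 1 TPM in the 8 libraries. The 4 CR_cisplatin libraries were alike and the 4 HP_cisplatin libraries were not: the median SD over genes was 0.09 in CR_cisplatin and 0.24 in HP_cisplatin, and the SD was larger in HP_cisplatin for 12919 of 15014 genes (86%).

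One library stood apart from its label. HP_cisplatin 4 was closer to CR_cisplatin 4 than any other 2 of the 16 libraries were to each other. The variance between their recovered read counts was 1.81 times that of counting alone over 16762 genes, where the next closest of the 120 pairs had 3.33 and the closest pairing of HP_cisplatin 4 with another hypoxia library 24.6. Over the 15014 genes tested the median absolute difference between HP_cisplatin 4 and CR_cisplatin 4 was 0.0546 on the log2 scale, at least 0.0924 in the other 15 pairs of a restricted with a hypoxia library, and at least 0.0880 in the pairs within CR_cisplatin. They were not merged into 1 sample because their counts differed by more than sampling noise, which does not show that they are independent samples.

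The likeness went beyond injury genes. All 4 CR_cisplatin libraries lay above or below all 8 baseline libraries in 566 genes, and HP_cisplatin 4 lay on the same side, outside the baseline range, in 475 of them (83.9%), against 45 (7.95%), 160 (28.3%) and 115 (20.3%) for HP_cisplatin 1, 2 and 3. Nr1d1, which encodes the clock repressor REV-ERB alpha, is an example: it measured 1.04, 1.18, 0.82 and 1.29 TPM in CR_cisplatin 1 to 4 and 0.843 TPM in HP_cisplatin 4, but 10.3, 6.05 and 7.48 TPM in HP_cisplatin 1 to 3. Vehicle libraries had 4.64 to 5.83 TPM and BL_cisplatin libraries 10.6 to 12.4 TPM of Nr1d1. The fat cell transcript Adipoq, which encodes adiponectin, was high in this pair and also in HP_cisplatin 2. It measured 14.9 TPM in CR_cisplatin 4 and 14.2 TPM in HP_cisplatin 4, 0.224 to 0.981 TPM in the other restricted libraries, and 0.0918, 20.1 and 1.61 TPM in HP_cisplatin 1 to 3. The counts over all genes, the position scale and part of the gene lists are therefore given with and without HP_cisplatin 4. Other list counts hold all 8 libraries and can change without it. What made HP_cisplatin 4 and the restricted libraries alike was not tested.

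Kidneys of restricted mice had higher tubular transport, distal tubule and respiratory chain transcripts than those of hypoxia-treated mice, and lower injury, p53, inflammatory and ribosomal protein transcripts. Of 15014 genes tested with limma, 3642 differed at an adjusted p of at most 0.05 (24.3%), 1387 higher after calorie restriction (9.24%) and 2255 lower (15%), of which 258 and 461 differed more than 2-fold. Of these calls 956 also had no overlap between the 4 and 4 libraries, as did 1471 of all genes tested (9.80%; 895 higher after restriction, 5.96%, and 576 lower, 3.84%). Without HP_cisplatin 4 the calls numbered 7654 (51.0%), 2773 higher (18.5%) and 4881 lower (32.5%), and included 3640 of the 3642. Then 7745 genes had no overlap (51.6%). HP_cisplatin 4 was singled out after its likeness to CR_cisplatin was seen. More calls, larger differences and smaller p-values without it follow in part from that choice and are no added support. Without CR_cisplatin 4 as well the calls numbered 6959 (46.4%), 2553 higher (17%) and 4406 lower (29.3%). The median log2 fold change of all genes was -0.05, and -0.08 without HP_cisplatin 4.

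The calls lay close to the threshold. The smallest adjusted p was 0.0275, shared by 938 genes, and limma called 0 genes when fitted on these groups alone (4353 at an unadjusted p under 0.05), with all genes unfiltered (8511), with the title prefix as a term (5553), or without any one of CR_cisplatin 1 to 4 (5555 to 5687), HP_cisplatin 1 (4698) or HP_cisplatin 3 (4766). With the prefix as a term CR_cisplatin 1 alone sets that term, so this fit is nearly the one without CR_cisplatin 1 and no separate check. Leaving out HP_cisplatin 2 gave 3208 calls, and weighting each group by its own spread 2279. All 3642 genes kept their direction in each of these fits. In the fits on these groups alone, unfiltered or weighted by group, the direction could not change. Their fold change is the same difference of group means.

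On a scale where 0 is the vehicle mean and 1 the BL_cisplatin mean, the CR_cisplatin libraries 1 to 4 lay at 0.03, 0.00, 0.02 and 0.04, and HP_cisplatin 1 to 4 at 0.96, 0.41, 0.66 and 0.04. HP_cisplatin 4 thus lay just below the highest restricted library, and the other hypoxia libraries were spread between the middle of the scale and cisplatin alone. The group means differed by 0.50 (0.02 ± 0.02 in CR_cisplatin, 0.52 ± 0.39 in HP_cisplatin; SD, n = 4), with p = 0.0571 in a 2-sided exact permutation test whose smallest possible value is 0.0286. Without HP_cisplatin 4 the difference was 0.66.

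**Figure D1:**
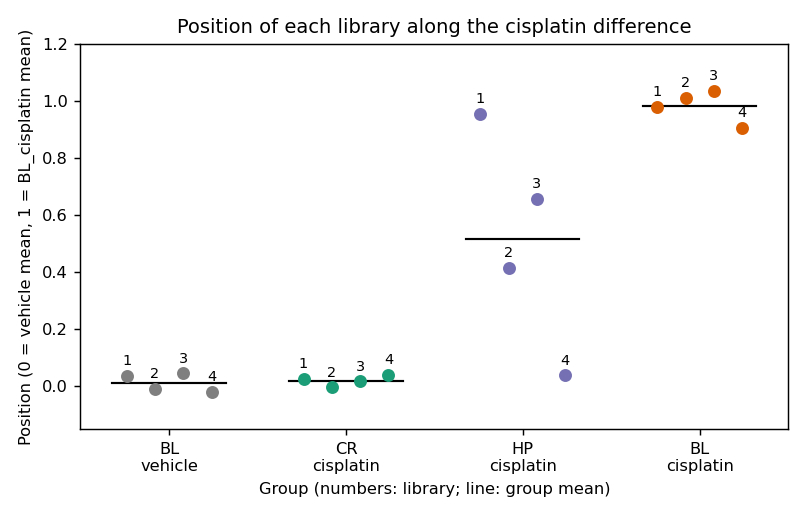
Position of each library along the difference between BL_vehicle (0) and BL_cisplatin (1), by group, each point a library with its number and each line a mean (n = 4). CR_cisplatin points lie from 0.00 to 0.04 and HP_cisplatin points at 0.96, 0.41, 0.66 and 0.04.

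Most of what separated the preconditioned groups was also what separated cisplatin from vehicle without preconditioning, a comparison of other libraries. Both comparisons come from the same fit and share its estimate of the spread of each gene, so their calls are not independent. All BL_cisplatin libraries carry one title prefix and all BL_vehicle libraries another, so cisplatin and whatever the prefix stands for are separated there only through CR_cisplatin 1. Of the 3642 calls, 3436 (94.3%) were called in the opposite direction between BL_cisplatin and BL_vehicle, 5 in the same direction, and 201 were not called there. The background of that comparison was high, with 10032 of the 15014 genes called (66.8%), 5710 higher after cisplatin (38%) and 4322 lower (28.8%). Seen from the other side, those 3436 genes are 34.3% of its calls. With the prefix as a term that comparison had 3413 calls, and 1883 of the 3642 genes (51.7%) were called there in the opposite direction and 0 in the same. Across genes, which are not independent replicates, the log2 fold changes had a Pearson r of -0.91, and of -0.92 without HP_cisplatin 4.

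**Figure D2:**
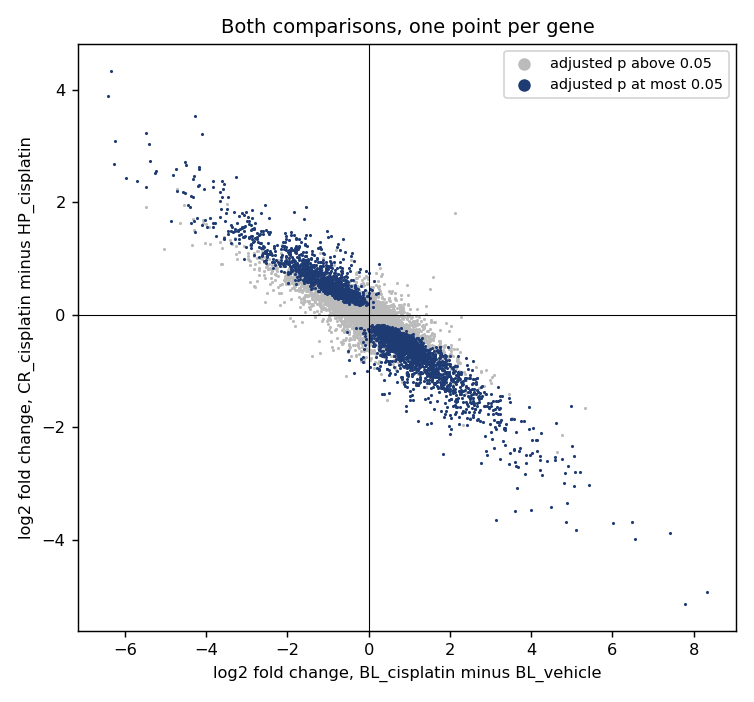
Log2 fold change of each gene tested between BL_cisplatin and BL_vehicle (x axis) and between CR_cisplatin and HP_cisplatin (y axis), 1 point per gene, dark where the adjusted p of the second was at most 0.05. The points run from the upper left to the lower right, and 3436 of the 3642 dark points have opposite signs and were called in both.

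Tubular injury genes were lower after calorie restriction, with 16 of 20 past the threshold. Havcr1 (chromosome 11, 46735080 to 46779578, GRCm38) measured 1.94, 0.317, 0.989 and 0.518 TPM in CR_cisplatin 1 to 4, and 582, 51.0, 409 and 0.473 TPM in HP_cisplatin 1 to 4. HP_cisplatin 1 to 3 were far above every restricted library while HP_cisplatin 4 lay among them, and the log2 fold change was -5.14 (SE 1.30, adjusted p = 0.0275). With voom on recovered reads Havcr1 did not pass (adjusted p = 0.0931). Vehicle libraries had 0.306 to 1.33 TPM and BL_cisplatin libraries 298 to 489 TPM, so HP_cisplatin 1 was above all 4 libraries given cisplatin alone.

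Lcn2, which encodes neutrophil gelatinase-associated lipocalin, a urinary marker of tubular damage, measured 2.43, 0.634, 1.19 and 0.717 TPM after restriction and 199, 28.4, 101 and 0.611 TPM after hypoxia. Its log2 fold change was -3.87 (adjusted p = 0.0279), and -5.30 without HP_cisplatin 4 (adjusted p = 1.82e-06). Of 20 injury genes 16 were lower after restriction and 0 higher, with a median of -1.69 beside -0.05 for all genes. Without HP_cisplatin 4, 18 were lower. The small proline-rich protein gene Sprr1a (-3.70), the TWEAK receptor gene Tnfrsf12a (-2.59), the tight junction gene Cldn4 (-2.51) and the galectin gene Lgals3 (-1.89) had the smallest adjusted p of the list. Mean levels of the list relative to vehicle ran from -0.08 to 0.24 in CR_cisplatin and were 3.60, 1.88, 2.92 and 0.21 in HP_cisplatin 1 to 4, with 3.57 to 3.91 in BL_cisplatin.

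Targets of p53 were lower after restriction as well. Cdkn1a, which encodes the cell cycle inhibitor p21 (chromosome 17, 29090976 to 29100727), measured 2.74, 1.94, 9 and 3.84 TPM in CR_cisplatin and 206, 101, 146 and 3.76 TPM in HP_cisplatin. All restricted libraries were above the vehicle range of 0.494 to 1.47 TPM, CR_cisplatin 3 the most, and the log2 fold change was -3.69 (SE 0.86, adjusted p = 0.0275). Of 26 p53 targets 23 were lower after restriction and 0 higher (median -1.58), and without HP_cisplatin 4, 24 were lower. Phlda3, an inhibitor of AKT signalling, measured 3.38, 2.69, 9.47 and 7.16 TPM after restriction and 87.8, 62.7, 78.3 and 7.18 TPM after hypoxia. Here too HP_cisplatin 4 was level with CR_cisplatin 4 (log2 fold change -2.84, adjusted p = 0.0275). The apoptosis gene Bbc3, which encodes PUMA, changed by -1.73, the nuclease gene Aen by -1.60 and Gtse1 by -2.37.

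Restricted libraries also differed among themselves in this pathway. The mean level of the 26 p53 targets relative to vehicle was 0.06, -0.06, 0.56 and 0.14 in CR_cisplatin 1 to 4, and 2.72, 2.16, 2.57 and 0.15 in HP_cisplatin 1 to 4. BL_cisplatin libraries had 2.55 to 2.62. HP_cisplatin 2, at position 0.41 over all genes, thus had p53 targets not far below cisplatin alone.

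**Figure D3:**
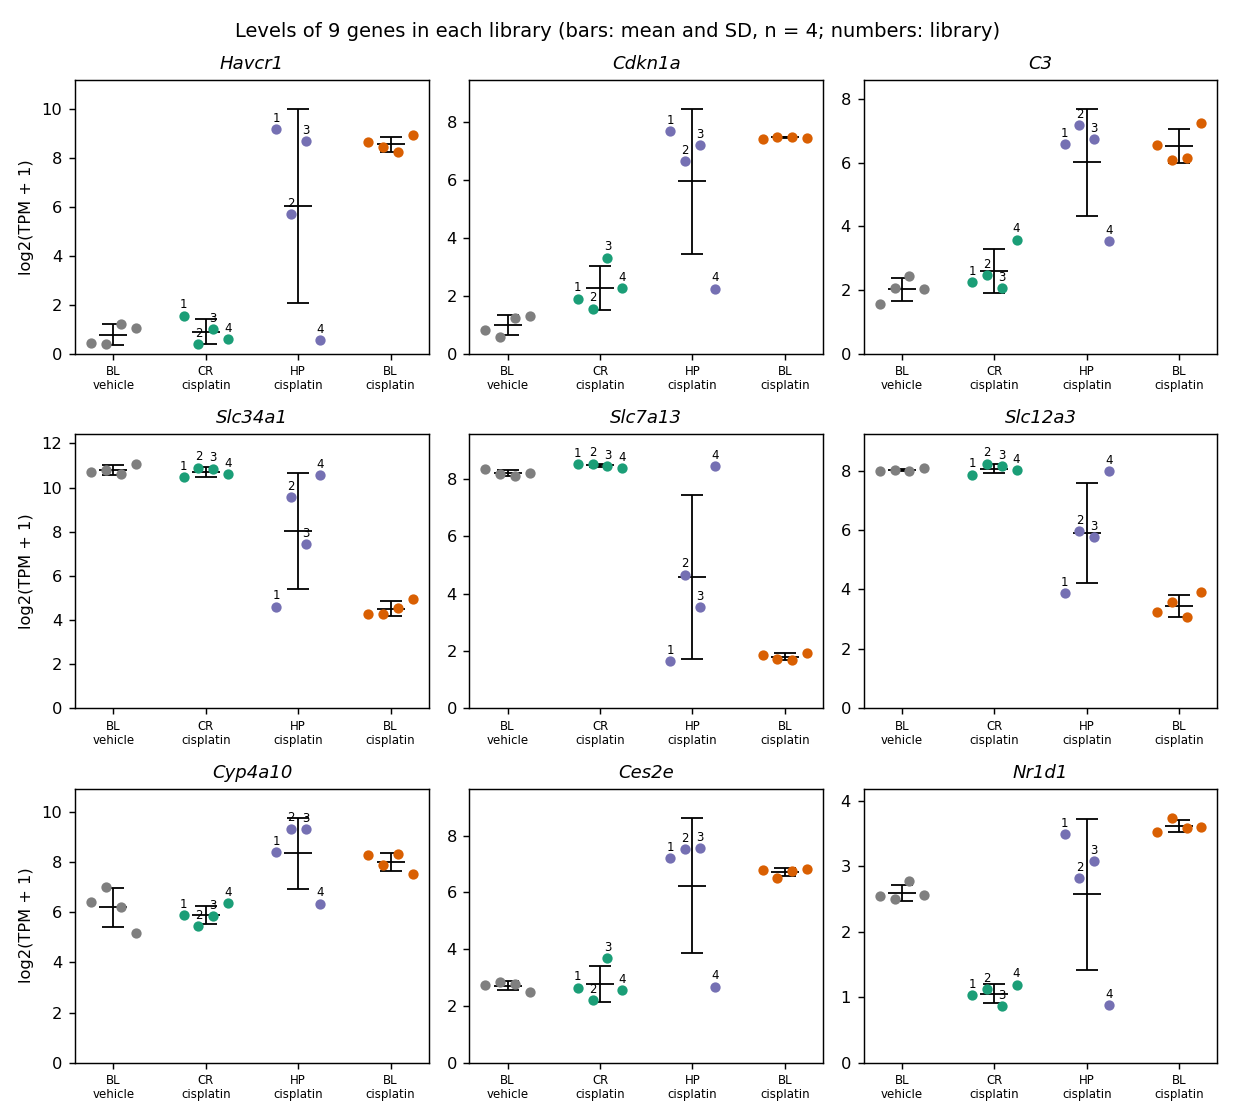
Log2(TPM + 1) of 9 genes in each library by group, with the group mean and SD (n = 4) as bars and library numbers on the CR_cisplatin and HP_cisplatin points. HP_cisplatin 4 lies near the CR_cisplatin points in every panel, and HP_cisplatin 1 to 3 lie above them for Havcr1, Cdkn1a, C3, Cyp4a10, Ces2e and Nr1d1 and below them for Slc34a1, Slc7a13 and Slc12a3.

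Proximal tubule transporters were higher after restriction. Slc34a1, the sodium-phosphate cotransporter of the brush border (chromosome 13, 55398187 to 55415592), measured 1406, 1915, 1848 and 1567 TPM in CR_cisplatin and 23.3, 754, 170 and 1509 TPM in HP_cisplatin. HP_cisplatin 1 was at the level of cisplatin alone (18.2 to 30.2 TPM), HP_cisplatin 2 was nearest to the restricted range, and HP_cisplatin 4 was inside it (log2 fold change 2.67, SE 0.87, adjusted p = 0.0409). Of 20 proximal tubule transport genes 9 were higher and 0 lower (median 0.90), and 15 were higher without HP_cisplatin 4. The phosphate transporter gene Slc34a3 rose by 2.23, the glucose transporter gene Slc5a2, which encodes SGLT2, by 1.64, the amino acid transporter gene Slc6a19 by 0.86 and the endocytic receptor gene Lrp2, which encodes megalin, by 1.34. Bulk RNA cannot tell fewer cells of a type from less RNA per cell.

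Genes of the straight part of the proximal tubule were mostly higher after restriction. Slc7a13, an amino acid transporter of the last segment, measured 365, 369, 349 and 334 TPM in CR_cisplatin and 2.14, 24.2, 10.6 and 350 TPM in HP_cisplatin, so HP_cisplatin 1 to 3 were far below the restricted range and HP_cisplatin 4 was inside it. Its log2 fold change was 3.90 (adjusted p = 0.0275), and 5.19 without HP_cisplatin 4. In the straight tubule list 6 of 12 genes were higher and 1 lower (median 1.57), and 10 and 1 without HP_cisplatin 4. Acy3, which encodes an aminoacylase, rose by 2.02 and Kap, the androgen-regulated kidney protein gene and the most abundant of the list, by 1.88. The list's mean level relative to vehicle was -1.18 in HP_cisplatin 2 and that of the 20 transport genes -0.31, where CR_cisplatin had 0.17 to 0.32 and -0.14 to 0.09.

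The exception in the straight tubule list was Slc5a10, a mannose and fructose transporter gene. It measured 102, 87.5, 86.1 and 105 TPM in CR_cisplatin, 135, 201, 234 and 104 TPM in HP_cisplatin, 77.3 to 95.7 TPM in BL_cisplatin and 76.4 to 108 TPM in vehicle. HP_cisplatin 1 to 3 were above all other libraries of the series, so this transporter was lower after restriction (-0.75, adjusted p = 0.0283).

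The thick ascending limb and the distal convoluted tubule followed the proximal tubule. Egf, the epidermal growth factor gene of the distal nephron, measured 174, 206, 162 and 177 TPM after restriction and 5.48, 29.0, 15.4 and 171 TPM after hypoxia (2.73, adjusted p = 0.0275). Umod, which encodes uromodulin, did not pass: it measured 1259, 1396, 949 and 1122 TPM in CR_cisplatin and 372, 547, 603 and 1106 TPM in HP_cisplatin (0.95, adjusted p = 0.0620), and passed without HP_cisplatin 4 (1.23, adjusted p = 0.00746). Of 10 thick ascending limb genes 5 were higher and 0 lower (median 1.14), and 9 were higher without HP_cisplatin 4. The calcium-sensing receptor gene Casr (1.38), the chloride channel subunit gene Bsnd (1.21) and the prostaglandin receptor gene Ptger3 (1.15) were among them.

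In the distal convoluted tubule 8 of 10 genes were higher and 0 lower (median 1.05), and all 10 without HP_cisplatin 4. Slc12a3, the thiazide-sensitive sodium chloride cotransporter gene, measured 233, 302, 284 and 260 TPM in CR_cisplatin and 13.6, 61.1, 53.5 and 254 TPM in HP_cisplatin. Its log2 fold change was 2.18 (adjusted p = 0.0275). Pvalb, which encodes the calcium-binding protein parvalbumin, measured 12.8 to 16 TPM in CR_cisplatin and 0.244, 1.01, 0.356 and 15.2 TPM in HP_cisplatin, with 0.236 to 0.334 TPM after cisplatin alone. HP_cisplatin 1 and 3 were thus near cisplatin alone for this gene (2.45, adjusted p = 0.0275). The magnesium channel gene Trpm6 rose by 1.03, and it was as low in HP_cisplatin 1 to 3 (2.49 to 3.05 TPM) as in BL_cisplatin (2.40 to 3.16 TPM).

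Intercalated cell and podocyte genes were called at shares near the 24.3% of all genes, and principal cell genes were not called. Of 9 principal cell genes 0 passed in either direction with limma (median 0.24; 1 gene at an unadjusted p under 0.05, 0 called with voom), the lowest adjusted p being that of the vasopressin receptor gene Avpr2 (0.58, adjusted p = 0.0575). Of 10 intercalated cell genes 2 were higher: the anion exchanger gene Slc4a1 (1.34) and the proton pump subunit gene Atp6v1b1 (0.79). Without HP_cisplatin 4, 5 were higher, beside 18.5% of all genes. Podocyte genes went both ways, with Magi2 higher (0.50) and Synpo lower (-0.52) of 10. Of 10 endothelial genes 4 were higher after restriction: the VEGF receptor gene Kdr (0.94), Emcn (0.87), Ehd3 (0.71) and the angiopoietin receptor gene Tek (0.69). For Kdr the libraries had 11.0 to 14.3 TPM after restriction and 3.06, 7.16, 4.81 and 10.4 TPM after hypoxia.

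Red blood cell genes did not follow the groups. Their mean level relative to vehicle was -1.89 in CR_cisplatin 3, within the BL_cisplatin range of -1.96 to -1.75, and up to 0.76 in the other restricted libraries. In HP_cisplatin 1 to 4 it was -0.29, -1.87, -1.79 and 0.48, and 0 of 5 genes passed with limma (1 at an unadjusted p under 0.05 and 1 with voom, both Slc25a37, a mitochondrial iron importer). How much blood remained after perfusion is not known from these values.

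Respiratory chain genes were higher after restriction where they passed, as were most called genes of amino acid and drug metabolism. Nuclear genes of oxidative phosphorylation were higher in 8 of 26 and lower in 0 (median 0.33), and higher in 22 without HP_cisplatin 4, each by less than 2-fold among the 4 with the smallest adjusted p. Atp5b, the beta subunit of ATP synthase, measured 598 to 618 TPM in CR_cisplatin and 290, 461, 376 and 599 TPM in HP_cisplatin (0.54, adjusted p = 0.0325). Of 12 mitochondrially encoded genes 6 were higher and 0 lower (median 0.49), among them the cytochrome b gene mt-Cytb (0.90). HP_cisplatin 2, although second nearest to the restricted libraries, had 3188 TPM of mt-Cytb, close to the 2218 to 2972 TPM of cisplatin alone and below the 5861 to 6821 TPM of CR_cisplatin.

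Inmt, which encodes indolethylamine N-methyltransferase, had the largest log2 fold change of the 9 calls in the xenobiotic list. It measured 232, 377, 230 and 236 TPM in CR_cisplatin and 2.92, 7.75, 2.62 and 232 TPM in HP_cisplatin, so that HP_cisplatin 1 to 3 were all near the BL_cisplatin range of 3.46 to 4.41 TPM (4.34, SE 0.93, adjusted p = 0.0275). Of 20 xenobiotic genes 8 were higher and 1 lower (median 1.21), such as Cyp4b1 (1.24), Cyp2j13 (1.67) and Ces1f (0.78). Of 15 genes of amino acid breakdown 4 were higher and 1 lower (median 0.90). Gatm, the first enzyme of creatine synthesis, rose by 2.58.

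The largest differences among non-overlapping calls upward were in metabolic and transport genes of the tubule. Hsd3b2, a steroid dehydrogenase gene, rose by 2.66, the carboxylesterase gene Ces1e by 2.40, the brush border protease gene Mep1b by 2.27 and Cml1 by 1.96. Smaller ones were those of Amacr (1.76), which encodes a peroxisomal racemase, the sulfate transporter gene Slc26a1 (1.74), the glycogen synthase gene Gys2 (1.73), the carbonic anhydrase gene Car14 (1.63), Mettl7a2 (1.62) and the talin gene Tln2 (1.62). In each of these 10 genes HP_cisplatin 4 was the highest hypoxia library. That it lay below the lowest restricted one follows from the choice of calls without overlap. Gys2, for example, had 6.51 to 8.31 TPM after restriction and 0.200, 2.86, 0.299 and 6.41 TPM after hypoxia.

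Among fatty acid and ketone body genes, several were lower after restriction than after hypoxia. Cyp4a10, a fatty acid omega-hydroxylase gene, measured 58.5, 42.7, 57.2 and 81.1 TPM after restriction and 336, 653, 646 and 80.6 TPM after hypoxia, against 187 to 323 TPM in BL_cisplatin. HP_cisplatin 1 to 3 all exceeded cisplatin alone (-2.47, adjusted p = 0.0275). Its relatives Cyp4a14 (-3.69) and Cyp4a32 (-2.11), the thioesterase genes Acot1 (-1.65) and Acot2 (-1.41), the pyruvate dehydrogenase kinase gene Pdk4 (-2.57) and the lipid droplet gene Plin2 (-2.46) were lower as well. Reads of the Cyp4a, Acot and carboxylesterase families may be divided between similar copies, so these values are uncertain between members.

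Ppara itself measured 25.8, 20.5, 26.6 and 29.3 TPM in CR_cisplatin and 44.8, 45.7, 49.0 and 28.9 TPM in HP_cisplatin (-0.68, adjusted p = 0.0275). Vehicle libraries had 27.7 to 32.2 TPM and BL_cisplatin libraries 29.4 to 40.2 TPM, a comparison that did not pass (adjusted p = 0.26). Of 18 fatty acid oxidation genes 2 were higher after restriction and 6 lower (median -0.20), and of 13 genes of ketone bodies and fasting 1 was higher and 5 lower (median -0.57). Over all genes 9.24% were higher and 15% lower. Without HP_cisplatin 4 the fatty acid oxidation list had 4 higher and 7 lower, and the fasting list 3 and 5. These shares are near the 18.5% higher and 32.5% lower of all genes in that fit. The fatty acid oxidation list went both ways, with 7 positive and 11 negative differences. Its 2 genes called higher were the coactivator gene Ppargc1a (0.70) and the short-chain acyl-CoA dehydrogenase gene Acads (0.43), and the ketone body dehydrogenase gene Bdh1 (1.53) was the call upward in the fasting list. Cidec, a lipid droplet gene of fat cells and of lipid-laden liver, measured 0.317, 0.607, 1.22 and 18.1 TPM after restriction and 13.5, 27.6, 17.3 and 17.3 TPM after hypoxia (-2.65, adjusted p = 0.0339). CR_cisplatin 4 was level with the hypoxia libraries for Cidec, and Adipoq was as high there (14.9 TPM), but low in HP_cisplatin 1 (0.0918 TPM). Of 10 adipocyte and liver markers 8 passed the filter on low values, and none was at 0 in all 8 libraries. Of those tested 1 was called higher and 2 lower after restriction, beside 9.24% and 15% of all genes. Their summed level was 77.9 to 164 TPM in CR_cisplatin and 110 to 182 TPM in HP_cisplatin. The part of fat tissue in the lipid gene values was not tested.

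**Figure D4:**
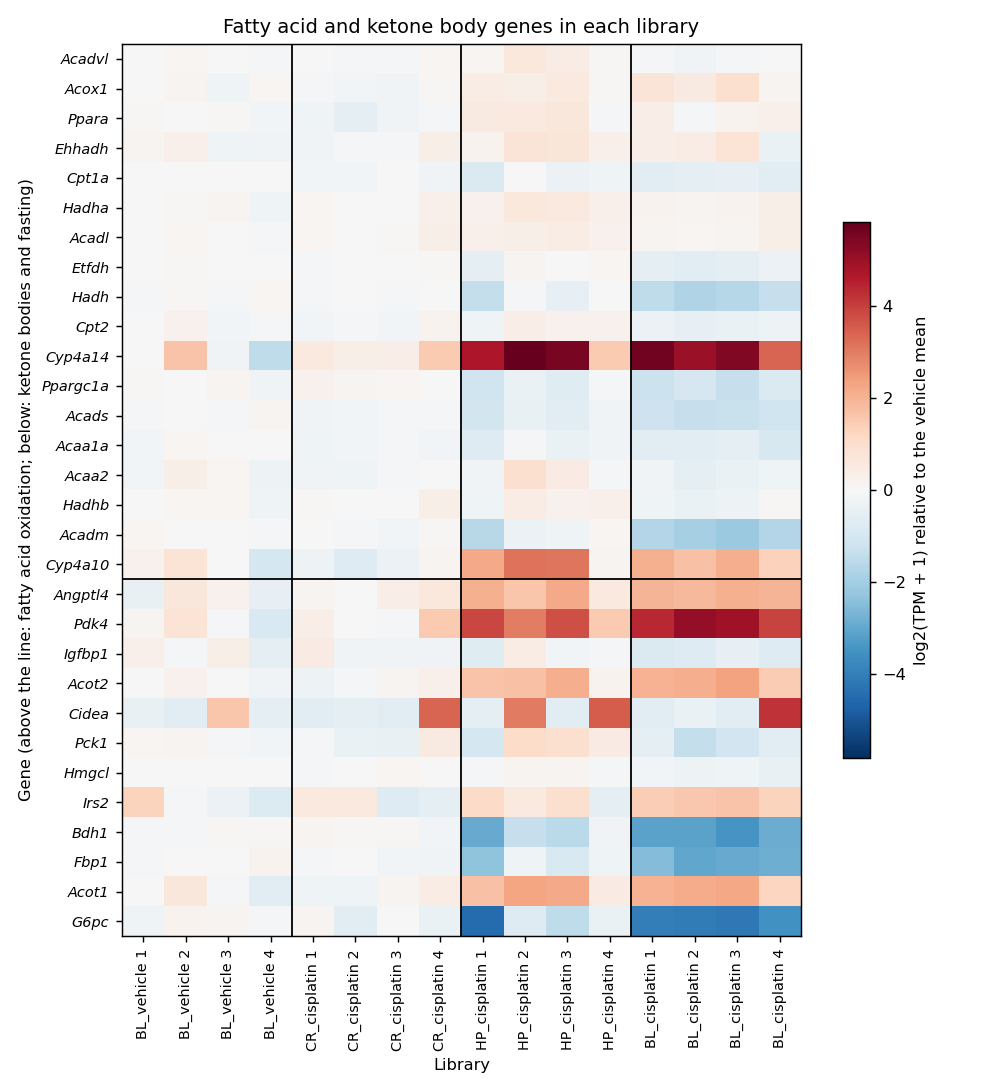
Log2(TPM + 1) relative to the vehicle mean for 18 fatty acid oxidation genes and 12 genes of ketone bodies and fasting in each of the 16 libraries, red for higher and blue for lower. Cyp4a10, Cyp4a14 and Pdk4 are high in HP_cisplatin 1 to 3 and in BL_cisplatin, and HP_cisplatin 4 has the colours of CR_cisplatin 4.

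Some genes were called between the preconditioned groups and not between cisplatin alone and vehicle, which does not show that cisplatin alone left them unaltered. Among 712 calls without overlap that the naming rule admits, 36 were of this kind, 15 higher and 21 lower after restriction. Slc25a20, the carnitine-acylcarnitine carrier of mitochondria, measured 9.74, 10.1, 10.2 and 13.0 TPM in CR_cisplatin and 15.4, 22.3, 22.6 and 13.2 TPM in HP_cisplatin (-0.69, adjusted p = 0.0275). Its BL_cisplatin range of 13.0 to 16.3 TPM and vehicle range of 9.95 to 13.3 TPM touched, with a difference that did not pass (0.34, adjusted p = 0.063). Decr1, a mitochondrial enzyme for the oxidation of unsaturated fatty acids, measured 42.7, 41.9, 43.5 and 50.8 TPM in CR_cisplatin and 56.8, 70.6, 76.0 and 51.7 TPM in HP_cisplatin. All 4 hypoxia libraries were above the other 12, HP_cisplatin 4 narrowly (-0.49, adjusted p = 0.0275; 43.3 to 51.3 TPM in BL_cisplatin).

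On the side higher after restriction, Frzb, which encodes a secreted antagonist of Wnt signalling, measured 9.95, 8.03, 8.08 and 7.32 TPM in CR_cisplatin and 2.43, 3.97, 3.70 and 7 TPM in HP_cisplatin, with 5.17 to 7.04 TPM in vehicle. Every restricted library was above every vehicle library (0.89, adjusted p = 0.0275). Cisplatin alone differed from vehicle by -0.44 (adjusted p = 0.059). Slc7a8, an amino acid exchanger, rose by 0.40, Gnrh1 by 0.50 and the DNA polymerase subunit gene Pole2 by 0.37. Sult5a1, a sulfotransferase gene, and Chrna1os each changed by -0.55. The short RNA genes Snord4a (0.91), Mir343 (0.82), Mir194-2 (-0.84) and Mir186 (-0.55) rest on 0 to 25 reads per library, and all but Mir194-2 lie inside a longer gene of the same strand, whose reads cannot be told apart from theirs.

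Antioxidant genes were lower after restriction. Of 17 targets of NRF2, the transcription factor of the oxidative stress response, 12 were lower and 1 higher (median -0.92), and 15 and 1 without HP_cisplatin 4. Nqo1, which encodes a quinone reductase, measured 27.6, 19.4, 28.4 and 23.9 TPM in CR_cisplatin and 178, 134, 172 and 21.8 TPM in HP_cisplatin. HP_cisplatin 1 and 3 exceeded the BL_cisplatin range of 93.9 to 141 TPM, and the log2 fold change was -1.95 (adjusted p = 0.0275). The pentose phosphate pathway genes G6pdx (-1.03), Pgd (-1.09) and Tkt (-0.57) had the next smallest adjusted p. Mgst1, a microsomal glutathione transferase gene, measured 10 to 15.1 TPM after restriction and 53.6, 72.6, 54.4 and 16 TPM after hypoxia (-1.82, adjusted p = 0.0275).

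Most inflammatory genes were lower after restriction, and complement, acute phase and interferon genes in part. In the list of inflammation and NF-kB, 13 of 15 genes were lower and 0 higher (median -1.25), including the adhesion molecule gene Icam1 (-1.63), Relb (-1.33), Nfkb2 (-1.55) and Tnfaip3 (-1.25). C3, the central complement component, measured 3.71, 4.57, 3.20 and 11.0 TPM in CR_cisplatin and 94.3, 144, 105 and 10.5 TPM in HP_cisplatin. CR_cisplatin 4 and HP_cisplatin 4 had nearly the same level, above the other restricted libraries (-3.41, adjusted p = 0.0275). In the complement and acute phase list 6 of 16 genes were lower and 1 higher (median -0.84), with the fibrinogen genes Fgg (-3.98) and Fga (-2.80) and the ceruloplasmin gene Cp (-1.15) among them. Over all genes 15% were lower and 9.24% higher. Without HP_cisplatin 4 this list had 6 lower and 3 higher, near the 32.5% and 18.5% of all genes. Of 23 interferon response genes 6 were lower and 2 higher (median -0.25), beside 15% lower and 9.24% higher over all genes. Without HP_cisplatin 4 the counts were 12 and 2, beside 32.5% and 18.5%. Isg15 had 0.914 to 1.52 TPM after restriction and 5.4, 4.53, 5.92 and 1.18 TPM after hypoxia (-1.05, adjusted p = 0.0284).

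Macrophage markers went both ways. The lysosomal marker Cd68 measured 2.17, 1.52, 1.29 and 1.55 TPM in CR_cisplatin and 47.5, 13.2, 31.6 and 1.86 TPM in HP_cisplatin (-2.61, adjusted p = 0.0275), and Cd14 (-1.44) and Itgam (-0.50) were lower too. Csf1r, the receptor for macrophage growth factor, was higher, with 11.3 to 13.9 TPM after restriction and 3.15, 7.83, 5.46 and 12 TPM after hypoxia (0.86, adjusted p = 0.0354). Those 4 were the calls among 10 macrophage genes tested, beside 9.24% higher and 15% lower over all genes. In the fibroblast and matrix list Col4a1 (-0.67) and Lox (-0.58) were lower and the smooth muscle gene Tagln (0.73) was higher of 14. These shares are near those of all genes. Neutrophil genes were mostly under 1 TPM, and neither S100a8 nor S100a9, the pair tested, passed with limma (0 at an unadjusted p under 0.05 and 0 with voom).

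HIF targets were called at shares near those of all genes. Of 18 tested, 2 were higher after restriction and 4 lower (median 0.12), beside 9.24% and 15% of all genes, and 5 and 7 without HP_cisplatin 4, beside 18.5% and 32.5%. Vegfa, the endothelial growth factor gene and a classical HIF target, was higher after restriction, with 47.2 to 52.6 TPM against 21.7, 33.9, 27.1 and 48.5 TPM in HP_cisplatin (0.67, adjusted p = 0.0275). The adrenomedullin gene Adm (-1.83), the oxygen-sensing hydroxylase gene Egln3 (-0.93) and the haem oxygenase gene Hmox1 (-1.63) were lower. Egln3 measured 3.29 to 4.22 TPM in CR_cisplatin and 12.3, 7.12, 11.9 and 4.21 TPM in HP_cisplatin, of which HP_cisplatin 1 and 3 were above the BL_cisplatin range of 7.16 to 10.3 TPM.

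Among genes of fasting signals and nutrient sensing, 2 of 19 in the sirtuin, FOXO and nutrient signalling list passed, Ppargc1a and Kl, a share near the 9.24% of all genes that were higher. Kl, which encodes the phosphate-regulating coreceptor klotho, measured 83.3, 129, 91.8 and 102 TPM after restriction and 8.86, 40.1, 23.6 and 102 TPM after hypoxia (1.67, adjusted p = 0.0323). Of 11 glucocorticoid response genes 4 were lower and 1 higher, beside 15% and 9.24% of all genes. Without HP_cisplatin 4 the counts were 6 and 1, beside 32.5% and 18.5%. Fkbp5, a chaperone gene induced by glucocorticoids, changed by -0.95, and the metallothionein genes Mt1 by -2.23 and Mt2 by -3.03. Mt2 had 13.3 to 27.7 TPM in CR_cisplatin and 570, 153, 443 and 14.2 TPM in HP_cisplatin.

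In the cholesterol and lipogenesis list 7 of 23 genes were higher after restriction and 0 lower (median 0.28). Mvd, which encodes mevalonate diphosphate decarboxylase, measured 29.0, 29.3, 27.2 and 27.8 TPM in CR_cisplatin and 6.02, 16, 12 and 25.4 TPM in HP_cisplatin, so that all restricted libraries were above the vehicle range of 21.3 to 24.1 TPM (1.04, adjusted p = 0.0275). Idi1 (1.18), Cyp51 (1.82) and Dhcr7 (0.52) rose as well. In transsulfuration and hydrogen sulfide metabolism 2 of 12 genes were higher, Cbs (0.88) and Csad (1.39), and 2 lower, Cdo1 (-0.51) and Gclc (-0.87). Over all genes 9.24% were higher and 15% lower, which is near these shares. Cth, the hydrogen sulfide-forming enzyme cystathionine gamma-lyase, did not pass: it measured 46.3 to 52.5 TPM after restriction and 20.1, 60.0, 55.0 and 46.3 TPM after hypoxia (0.23, SE 0.25, adjusted p = 0.488). Without HP_cisplatin 1 the direction turned (-0.11).

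Ribosomal protein genes were lower after restriction, with a small median difference. Of 24 cytosolic ones 19 were lower and 0 higher (median -0.44), and all 24 without HP_cisplatin 4. Rps19 measured 30.2 to 35.7 TPM in CR_cisplatin and 76.1, 61.6, 66.9 and 30.6 TPM in HP_cisplatin (-0.80, adjusted p = 0.0275). Of 18 genes of the integrated stress response and chaperones 8 were lower and 0 higher (median -0.29). Among the lower ones were the asparagine synthetase gene Asns (-0.99), Sesn2 (-1.28), Trib3 (-0.76) and Atf3 (-2.01). Without HP_cisplatin 4 this list went both ways, with 9 lower and 5 higher, beside 32.5% and 18.5% of all genes. In 10 cell cycle genes 2 were lower, Pcna (-0.34) and Ccne2 (-0.31), and 1 higher, Mcm6 (0.39). Of 17 clock genes 2 were higher, among them Per2 (0.62), and 2 lower, Nr1d1 (-1.52) and Rora (-0.28). The cell cycle and clock counts are near the 9.24% higher and 15% lower of all genes. Without HP_cisplatin 4, 5 clock genes were higher and 4 lower, beside 18.5% and 32.5%.

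Genes that handle cisplatin differed in both directions. Slc47a1, which encodes the efflux transporter MATE1, measured 213, 207, 228 and 203 TPM in CR_cisplatin and 65.8, 126, 92.8 and 201 TPM in HP_cisplatin (0.92, adjusted p = 0.0275). Ggt1, the brush border enzyme that breaks down glutathione conjugates, rose by 1.42. Abcc2, an apical exporter of such conjugates, measured 52.1, 47.1, 61.3 and 51.4 TPM after restriction and 92.3, 107, 96.7 and 50.6 TPM after hypoxia, where HP_cisplatin 1 to 3 were above the BL_cisplatin range of 59.6 to 75.9 TPM (-0.65, adjusted p = 0.0284). Of 11 genes of this list 5 were higher and 3 lower (median 0.44), beside 9.24% and 15% of all genes. Without HP_cisplatin 4 the counts were 5 and 4, beside 18.5% and 32.5%.

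Few genes set a whole group apart from the rest of the series. CR_cisplatin was above the other 12 libraries in 94 genes (0.626%) and below them in 21 (0.140%), and HP_cisplatin above in 8 (0.0533%) and below in 4 (0.0266%). HP_cisplatin 1 to 3, with HP_cisplatin 4 left out, were above the 12 libraries of the other groups in 254 genes (1.69%) and below them in 43 (0.286%). The examples that follow were chosen after their values were seen.

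Ces2e, a carboxylesterase gene, measured 5.23, 3.63, 11.8 and 4.92 TPM in CR_cisplatin and 147, 183, 186 and 5.38 TPM in HP_cisplatin, against 89.1 to 111 TPM in BL_cisplatin (-3.46, adjusted p = 0.0275). Gpt2, the mitochondrial alanine aminotransferase gene, measured 8.94 to 12.1 TPM after restriction and 24.8, 25.8, 31 and 9.76 TPM after hypoxia, with 12.7 to 18.1 TPM in BL_cisplatin and 9.91 to 17.1 TPM in vehicle. Cisplatin alone left Gpt2 without a call (0.26, adjusted p = 0.40), and the preconditioned groups differed by -0.97 (adjusted p = 0.0284). Cd36, the fatty acid transporter gene, was among the 8 with all hypoxia libraries highest, at 162, 173, 222 and 153 TPM against 109 to 151 TPM in CR_cisplatin, and did not pass (-0.38, adjusted p = 0.0762).

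The remaining large downward differences were in genes of lipid metabolism, the cytoskeleton and the acute phase. Smpdl3b, a phospholipase-like gene, measured 0.295 to 0.493 TPM in CR_cisplatin and 21.5, 8.35, 22.1 and 0.494 TPM in HP_cisplatin (-2.71, adjusted p = 0.0275). Lrg1 (-2.68) and Serpina3n (-2.23), both secreted proteins of the acute phase, the annexin gene Anxa3 (-2.41), Prrg4 (-2.39), the filamin gene Flnc (-2.11), the ephrin receptor gene Epha2 (-2.04) and the tubulin gene Tubb6 (-2.04) followed. These genes were chosen among calls without overlap, so every hypoxia library had to lie above the highest restricted one. HP_cisplatin 4 was the lowest hypoxia library in each of them. Flnc shows how unequal the others were, with 24.4 TPM in HP_cisplatin 1, 0.827 TPM in HP_cisplatin 2 and 11.1 TPM in HP_cisplatin 3.

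**Figure D5:**
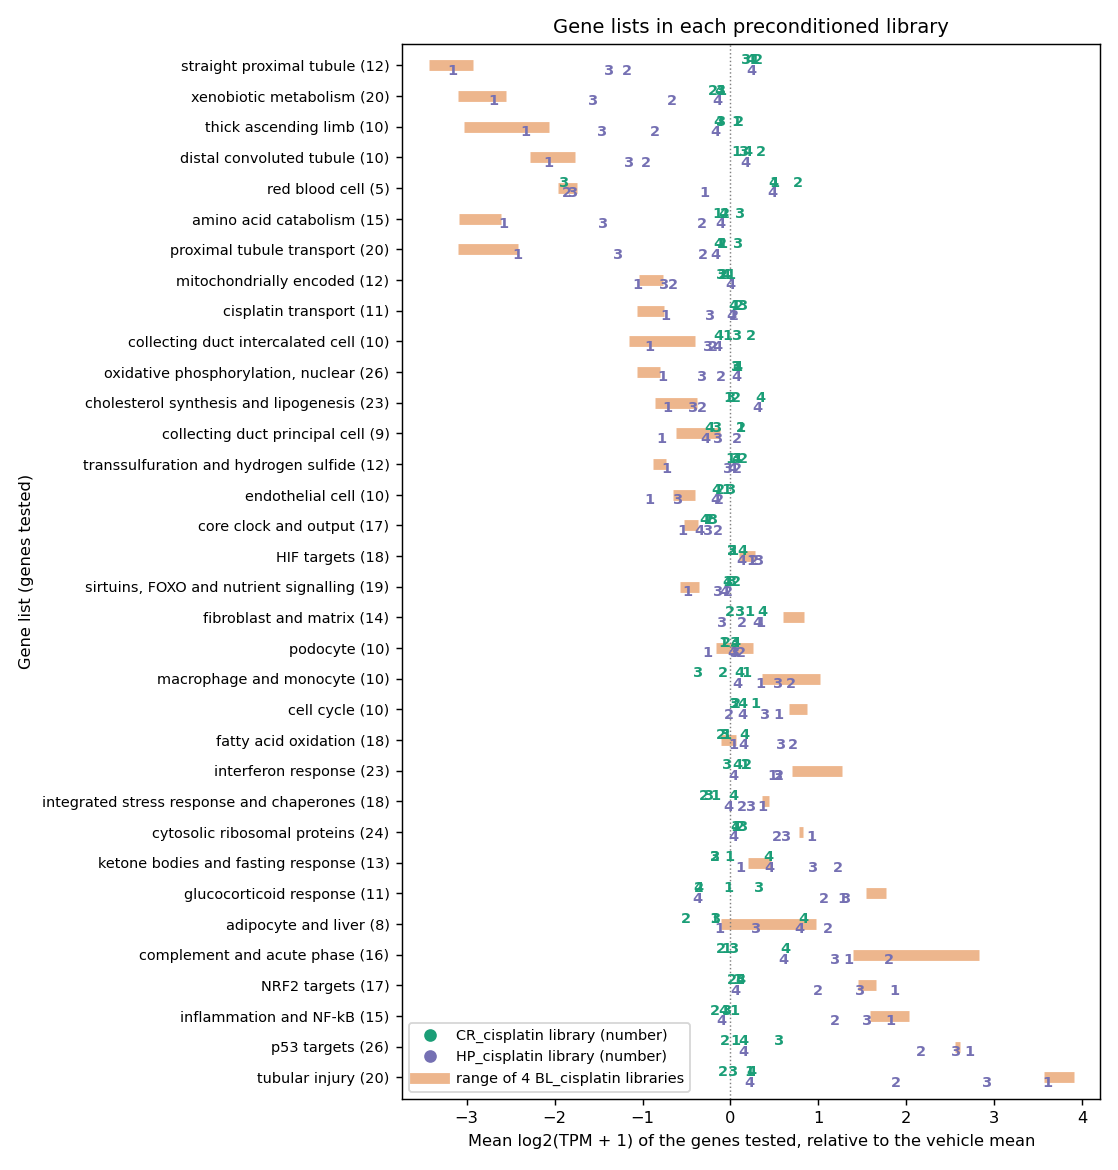
Mean log2(TPM + 1) of each gene list relative to the vehicle mean in every CR_cisplatin and HP_cisplatin library (numbers), with the range of the 4 BL_cisplatin libraries as a bar and the number of genes tested in brackets. For tubular injury the restricted libraries lie from -0.08 to 0.24 and HP_cisplatin 1 to 4 at 3.60, 1.88, 2.92 and 0.21.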

How the data were processed

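The authors deposited 1 table of TPM per gene and library; the unit was read from column sums of 1000000 and whole-read steps. Per the submitters' processing notes, the tools were STAR 2.5, Subread 1.5 and featureCounts, and the builds GRCm38 and mm10; settings are not given in the sources used here. Of 46078 genes, 13880 were at 0 throughout. GENCODE M21 held 45143 of the gene IDs and gave positions. Dividing TPM by the value of 1 read gave whole counts, within 0.0001 reads, for 24571 of 32198 genes with the annotated exon length (76.3%). For the other 7627 the shortest length that made the counts whole was taken. Their wholeness is therefore no check, and their counts may be too low by a common factor. These counts enter the read totals, the variance between pairs of libraries and voom.

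The 15014 genes that reached 1 TPM in 4 or more of the 16 libraries were fitted as log2(TPM + 1) with limma 3.58.1 (R 4.3.3; trended, robust prior variance; statmod 1.5.0) over all libraries, with no term but the group. P-values are 2-sided, with Benjamini-Hochberg adjustment over all genes tested and a threshold of 0.05. The shared spread is too small for HP_cisplatin. CR_cisplatin 1 shares its title prefix with BL_cisplatin and no other library, so the prefix was left out of the fit.

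Members and lists were chosen with earlier results of these data known. Named genes are the 12 largest rises and falls among calls without overlap, with an approved-style symbol and a mean log2(TPM + 1) of 1 or more, the 6 largest each of those not called for cisplatin alone (adjusted p above 0.05, absolute log2 fold change under 0.5), Havcr1, Lcn2, Cdkn1a, Slc34a1, Umod and Cth, and up to 4 members of each list by adjusted p; a few genes that this rule names are not reported here. Adipoq, Acads, Bdh1 and genes set apart in a whole group were named after their values were seen. Alternatives were another pseudocount and filters, other variance models, the composition (53 genes left out: mitochondrial, haemoglobin and the 10 most abundant), voom on recovered reads, the prefix as a term and each library left out.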

Additional observations from a re-analysis of the deposited data

Results flagged for a closer look

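Among 86 groups of 4 libraries examined for the named genes, 4 had a single library far from the other 3, where chance flags about 1 in 20 groups. In log2(TPM + 1), Slc5a2 stood at 7.78 in CR_cisplatin 3 and at 7.40 to 7.45 in the other restricted libraries. Snord4a was at 2.19 in CR_cisplatin 2, with 1.32 to 1.44 in the others. Slc25a20 was at 3.81 in CR_cisplatin 4, with 3.43 to 3.48 in the others, and 13.2 TPM in HP_cisplatin 4 beside its 13.0 TPM. Mir186 was at 2.13 in CR_cisplatin 1, with 2.71 to 2.80 in the others.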

How the results depend on the processing

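The number of genes called between CR_cisplatin and HP_cisplatin ranged from 0 to 7654 over the fits that left out 1 library of the 2 groups, and was 6959 without CR_cisplatin 4 and HP_cisplatin 4, an alternative chosen after seeing the data. It was 0 with limma on these groups alone, unfiltered or with the prefix as a term (4353, 8511 and 5553 genes at an unadjusted p under 0.05; voom on all libraries called 4409), and 2279 with a weight per group; the cause was not tested. Other pseudocount, filter, prior and composition settings gave 3082 to 4394 calls. Between BL_cisplatin and BL_vehicle the calls numbered 3413 with the prefix as a term, 6656 of 8963 genes with at least 5 TPM in 4 libraries, fewer genes being tested, and 9363 to 9951 with 1 library left out. Composition raised the share of higher calls there from 56.9 to 68.7% and the median of all genes from 0.08 to 0.25, with 18703 genes passing the filter in place of 15014 (67.3% and 0.24 over the 14974 genes in both), and moved that between CR_cisplatin and HP_cisplatin from -0.05 to -0.09. The difference in position was 0.35 to 0.66 with 1 library left out and 0.48 after the composition change, where the exact permutation p reached its smallest value of 0.0286. Of 211 single genes examined the direction reversed for Cth alone, whose log2 fold change was -0.11 without HP_cisplatin 1 and up to 0.40 with another library left out. No paired analysis was possible because the labels number no replicates. TPM keep relative levels only, and 4 libraries per group with unequal spread limit every p-value here.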

Other observations

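Among genes in which all 4 CR_cisplatin libraries lay outside the other 12, chosen after their values were seen, Cct6b, a chaperonin subunit gene, measured 2.37 to 2.95 TPM in CR_cisplatin, 0.176, 1.29, 0.708 and 1.97 TPM in HP_cisplatin and 1.23 to 2.07 TPM in vehicle (log2 fold change 0.87, adjusted p = 0.0275 with limma). Klf6, a transcription factor gene induced by injury, lay below the vehicle range of 9.71 to 12.2 TPM, at 9.12, 8.36, 8.4 and 9.55 TPM in CR_cisplatin, where HP_cisplatin had 58.2, 24.9, 38 and 9.9 TPM (-1.53, adjusted p = 0.0275). Acvr2b, an activin receptor gene, was lower in all 4 HP_cisplatin libraries than in the other 12, at 4.41, 4.69, 4.88 and 4.66 TPM against 5.46 to 8.05 TPM in CR_cisplatin and 5.14 to 6.12 TPM in BL_cisplatin (0.41, adjusted p = 0.0275).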
